A study of Caenorhabditis elegans with 9 samples.

Results

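Recurring FOS-1 regions are the stretches of the Caenorhabditis elegans genome where NanoDam peaks of the transcription factor FOS-1 were found in more than one replicate library from dopaminergic neurons. They were chosen from the peak lists themselves: a nuclear region of the authors' combined FOS-1 list was kept where peaks of at least 2 of the 3 FOS-1 lists overlapped it by 1 bp or more. This gave 218 of 2686 nuclear regions, or 8.12%. Of the 218, 204 had a peak in 2 lists and 14 in all 3. Because FOS-1 peaks chose the regions, their number, widths and FOS-1 scores are given as a description, without a test. They were divided into 83 regions that overlap a recurring EGL-43 region, defined in the same way, and 135 that do not.

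FOS-1 is a basic leucine zipper protein of the Fos family, whose members bind DNA as part of AP-1 dimers. EGL-43 is a zinc finger protein related to the mammalian EVI1 (MECOM) factor. Both are best known in C. elegans from the anchor cell, a gonadal cell that crosses basement membrane to reach the vulval cells, where both factors are needed for the crossing. In NanoDam, the bacterial methylase Dam is joined to a nanobody against green fluorescent protein (GFP), and a GFP-tagged factor brings the enzyme to its sites, where Dam methylates adenine in the sequence GATC. DNA is then cut at methylated GATC sites only and the pieces are amplified, so the spacing of GATC sites limits how finely a site can be placed.

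The 9 libraries came from L3 larvae of 3 strains, with 3 libraries each, numbered 1 to 3 in the labels. All carried bmd261, a single-copy transgene in which a promoter of the dopamine transporter gene dat-1 drives the NanoDam fusion, and the control strain TV27654 carried nothing else. Strain TV27655 also carried egl-43(wy1449), with GFP on endogenous EGL-43, and strain TV27857 also carried fos-1(wy1539), with GFP on endogenous FOS-1. The dat-1 promoter alone sets the cell type, since DNA was taken from whole worms, about 5000 per library, and peak lists hold no expression by which to check it. For every library the labels give 24 h on food and a temperature of 25 °C. Whether the libraries of a strain came from separate cultures is not given in the labels.

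Each peak list compares 1 tagged library with the like-numbered control, which the FOS-1 and the EGL-43 list of a number therefore have in common. The 3 FOS-1 lists held 1067, 1045 and 832 nuclear peaks in replicates 1, 2 and 3. The 218 regions held 189 peaks of replicate 1, 176 of replicate 2 and 111 of replicate 3, which were 17.7%, 16.8% and 13.3% of those lists. Read depth is unknown, so no counting intervals are given. The authors' score per peak has no stated scale and was therefore turned into a percentile among the peaks of its own list; in a region with several peaks of a list, the highest counted. In replicate 1, 304 of the peaks (28.5%) were tied at 1 score, against 2.30% of peaks at the most common score in replicate 2 and 0.721% in replicate 3. Replicate 3 had 11 peaks with a score below 0, of which 1 lay in a recurring region.

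Replicates 1 and 2 supplied most of the recurrence. Of the 204 regions in exactly 2 lists, 107 had peaks in replicates 1 and 2, 55 in replicates 1 and 3, and 42 in replicates 2 and 3. A replicate number was also dropped, with a peak then required in both of the others. The count was 56 without replicate 1, 69 without replicate 2 and 119 without replicate 3. Asking for 2 of 2 lists in place of 2 of 3 lowers the count by construction. These values therefore largely restate the split above.

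The rule asked only for peaks in the same region, and some members only just met it. In 28 of the 218 regions the peaks of different FOS-1 lists met at a single base, and in 31 fewer than 100 bp were covered by 2 lists or more. One of these lay on chromosome I from 7363272 to 7364540, where a 712 bp peak of replicate 1 and a 558 bp peak of replicate 2 shared 1 bp. Just outside the rule, the smallest gap between a region of 1 list and a peak of another list was 16 bp, on chromosome II between a replicate 3 peak ending at 11102307 and a replicate 1 peak starting at 11102324. A gap under 1000 bp to another list's peak was found for 108 of the 2468 regions of 1 list. Coordinates are 1-based and as deposited; the submitters' processing notes name the build ce10. Genes were not assigned, and sequence was not used here.

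The recurring regions were a few kilobases wide. Their median width was 2990.5 bp, with quartiles of 2141 and 4360 bp, and they ran from 361 to 192327 bp. Regions with a peak in 1 list had a median of 1538 bp, but a region joined from several peaks is wider by construction. The bases that peaks of 2 lists or more had in common were fewer, with a median of 777.5 bp per region. In 50 regions (22.9%) the peaks of 2 lists began or ended at the same base, and in 5 regions 2 lists held the identical peak. The regions that overlap a recurring EGL-43 region and those that do not had nearly equal median widths, 2966 and 3002 bp. They differed at the wide end, where the former reached 8809 bp and the latter 192327 bp.

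**Figure D1:**
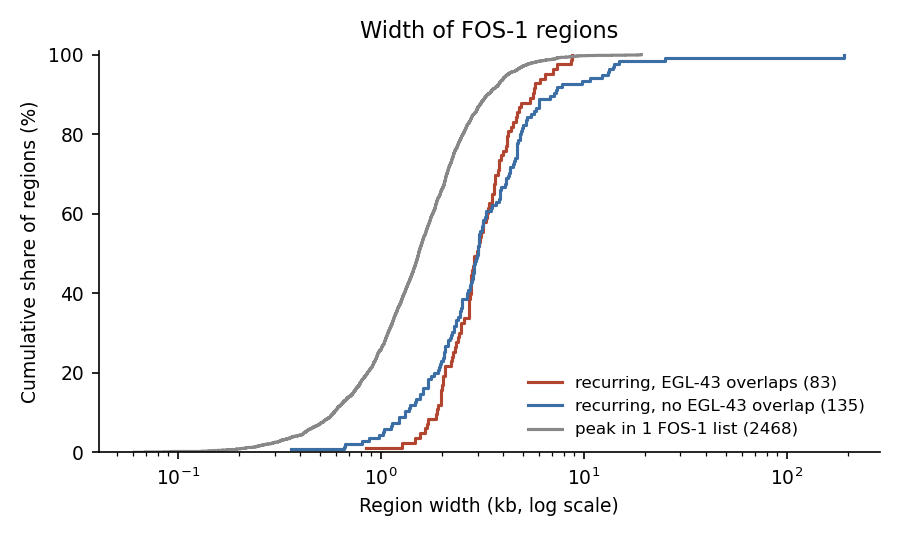
Cumulative share of FOS-1 regions (percent, vertical axis) by width in kb (log scale, horizontal axis) for the 83 recurring regions that overlap a recurring EGL-43 region, the 135 that do not, and the 2468 regions with a peak in 1 list. The curves of both recurring groups lie to the right of the curve for 1 list over most of their length and meet near their medians of 2966 and 3002 bp; the overlapping group ends first, at 8809 bp, while regions of 1 list reach 19263 bp.

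The 3 widest regions held no EGL-43 peak of any replicate. The widest lay on chromosome III from 3014747 to 3207073. A single replicate 3 peak of 187122 bp spanned most of it, replicate 1 had 6 peaks of up to 78122 bp there, and replicate 2 had 5 peaks of at most 3530 bp. Its FOS-1 score percentiles were 99.9, 75.2 and 96.0 in replicates 1, 2 and 3, near the top of the lists of replicates 1 and 3. The next widest, on chromosome II from 13788198 to 13813301, came from a replicate 3 peak of 25104 bp and a replicate 1 peak of 2000 bp. The one after it, on chromosome V from 19332833 to 19347764, held peaks of 3472, 680 and 14253 bp in replicates 1, 2 and 3. In these regions the extent was set by replicate 3, whose peaks were the widest of the FOS-1 lists, with a median of 2070 bp against 1515 and 1320 bp in replicates 1 and 2. Only 2 replicate 3 peaks and 6 replicate 1 peaks were longer than 15 kb, and 2 and 3 of them lay in recurring regions. Without peaks over 15 kb, 216 recurring regions were formed, and 83 again overlapped recurring EGL-43 regions.

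Of the 14 regions with a peak in every FOS-1 list, 10 overlapped a recurring EGL-43 region. The percentiles that follow are those of FOS-1 replicates 1, 2 and 3 in that order. On chromosome V from 10841424 to 10843116 they were 32.2, 83.9 and 69.1, and here the replicate 3 peak of 1693 bp contained the other two. On chromosome X from 3656343 to 3662789 they were 32.9, 83.9 and 53.2, and on chromosome III from 8284659 to 8293345 they were 67.7, 50.5 and 39.6. These regions stood highest by mean percentile among the 10, yet none was in the top quartile of more than 1 list.

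The other seven had mean percentiles below 50. The region on chromosome I from 9052112 to 9055725 had percentiles of 68.6, 57.2 and 21.3, and the one on chromosome II from 14088629 to 14091399 had 30.3, 23.7 and 68.4. On chromosome III from 2533219 to 2536512 the percentiles were 23.1, 32.1 and 51.8, and on chromosome II from 7977991 to 7980804 they were 32.9, 41.4 and 29.0. A place in all 3 lists therefore did not go with a high score. On chromosome X, the stretch from 12727401 to 12730195 had 7.03, 67.8 and 14.3, and the stretch from 6739723 to 6742920 had 31.8, 10.2 and 17.2. The lowest mean, 4.55, belonged to the region on chromosome III from 13651950 to 13655785, where percentiles of 3.80, 7.80 and 2.04 came with 2641 bp covered by 2 FOS-1 lists or more. EGL-43 peaks stood high in the last 2 regions, at percentiles of 88.9, 77.4 and 95.0 in EGL-43 replicates 1, 2 and 3 in the former, and at 68.8 and 97.1 in EGL-43 replicates 2 and 3 in the latter. This was not general among the regions listed before them. EGL-43 replicates 1, 2 and 3 gave 79.8, 68.8 and 68.6 at 9052112 on chromosome I. They gave 4.10, 50.6 and 71.6 at 12727401 on the X. Replicates 2 and 3 gave 5.27 and 19.9 at 14088629 on chromosome II, and 34.6 and 74.0 at 2533219 on III. Replicates 1 and 3 gave 53.5 and 71.9 at 7977991 on II.

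Beside the widest region and its chromosome V counterpart, 2 of the 14 regions did not overlap a recurring EGL-43 region. One, from 3101375 to 3104139 on chromosome X, had percentiles of 96.7, 39.3 and 38.2 and an EGL-43 peak in replicate 2 only. The region on chromosome I from 10475658 to 10477418 had percentiles of 0.843, 17.6 and 26.9 and no EGL-43 peak. The former ranked high in 1 replicate, and the latter was low in all of them.

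Recurring FOS-1 regions often coincided with recurring EGL-43 regions. The 83 that did so made up 38.1% of the 218, against 10.7% of all 2686 FOS-1 regions and 8.31% of the regions with a peak in 1 FOS-1 list. Among peaks at or above the median score of their list, the share was lower, 8 of 64 recurring regions (12.5%), against 5.60% of all 1535 regions formed from those peaks. That setting also cut the EGL-43 lists, to 191 recurring regions. It kept 673 of the 1067 peaks of FOS-1 replicate 1, since the tied score is the median there. Seen from the other factor, 82 of 412 recurring EGL-43 regions (19.9%) were involved. The share over all 2477 EGL-43 regions was not taken, so no background stands beside that value. The overlap counts are not free of the common controls. Wider regions have more room to overlap, and the share was therefore also taken within classes of width. Between 1 and 2 kb it was 13 of 38 recurring regions (34.2%) and 90 of 995 regions of 1 list (9.05%). Between 2 and 4 kb it was 48 of 107 (44.9%) and 67 of 684 (9.80%), and between 4 and 8 kb 19 of 54 (35.2%) and 7 of 138 (5.07%). The recurring regions had the higher share in each of these classes.

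The overlap mostly reached the shared bases of both factors. In 65 of the 83 regions (78.3%), bases covered by 2 FOS-1 lists or more were also covered by 2 EGL-43 lists or more, with a median of 628 bp in those regions. Of the 83 regions, 38 held peaks of all 3 EGL-43 lists, 41 of 2 lists and 4 of 1 list, the rest of the EGL-43 support in those 4 lying outside the FOS-1 region. Of the other 135 regions, 79 held no EGL-43 peak, 51 held peaks of 1 list and 5 held peaks of 2 lists that fell in separate EGL-43 regions. In 22 of the 218 regions a FOS-1 peak and an EGL-43 peak had identical ends. Over the 3 pairs of lists with the same number, such peaks were found in 9 regions for replicate 1, 3 for replicate 2 and 0 for replicate 3. Over the 6 pairs of different number they were found in 0 to 5 regions per pair.

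The share also depended on which FOS-1 replicates agreed. It was 46 of 107 regions (43%) for replicates 1 and 2, 16 of 55 (29.1%) for replicates 1 and 3, 11 of 42 (26.2%) for replicates 2 and 3, and 10 of 14 (71.4%) for all 3. EGL-43 replicate 2 had a peak in 9 of the 55 regions of FOS-1 replicates 1 and 3, or 16.4%. In each of the other 2 pairings, the EGL-43 list whose control had no part in the FOS-1 peaks was also no more frequent than the lists that share a control, with 42 of 107 for replicate 3 and 10 of 42 for replicate 1.

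**Figure D2:**
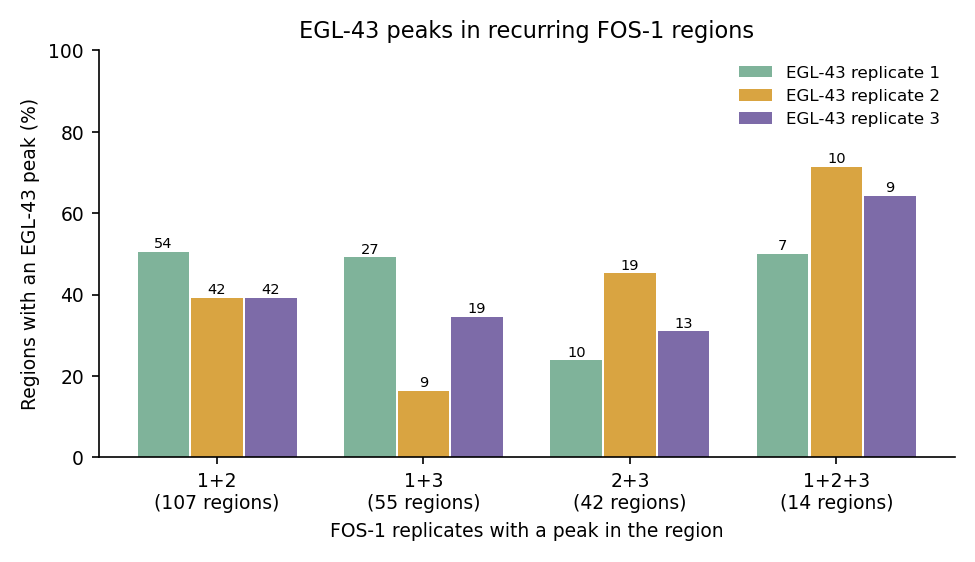
Share of recurring FOS-1 regions with a peak in each EGL-43 list (percent, vertical axis), by the FOS-1 replicates that had a peak there (horizontal axis); the number on each bar is the count of regions. EGL-43 replicate 2 was lowest where FOS-1 replicates 1 and 3 agreed (9 of 55 regions), and EGL-43 replicate 1 where replicates 2 and 3 agreed (10 of 42).

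To remove the shared control, each EGL-43 list was set against regions formed only from the 2 FOS-1 lists of the other numbers, so that neither a tagged nor a control library was common to both sides. EGL-43 replicate 1 had a peak in 17 of 56 regions found in both FOS-1 replicates 2 and 3 (30.4%), and in 11.8% of 1758 regions found in 1 of them, against 12.3% of all these regions. EGL-43 replicate 2 had one in 19 of 69 regions of FOS-1 replicates 1 and 3 (27.5%) and in 8.84% of 1753 regions of 1 of them, against 9.55% of all. EGL-43 replicate 3 had one in 50 of 119 regions of FOS-1 replicates 1 and 2 (42%) and in 11.6% of 1862 regions of 1 of them, against 13.4% of all. The share was higher in the recurring regions in 3 of 3 cases.

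The mean difference was 22.6 percentage points ± 6.80 (SD, n = 3), larger than its spread. A two-sided exact sign-flip test gave p = 0.25, the smallest p that 3 values allow, and the 3 values share FOS-1 lists. Regions of both lists were wider, with medians of 3152, 3002 and 2843 bp against 1580, 1746 and 1360 bp. Counted in bases instead, EGL-43 peaks covered 14.3%, 4.90% and 18.9% of the bases in both FOS-1 lists and 6.48%, 4.03% and 6.15% of the bases in 1, for EGL-43 replicates 1, 2 and 3. These lists covered 1.65%, 1.69% and 1.28% of the genome. The narrow gap for EGL-43 replicate 2 went with the widest chromosome III region, which makes up most of the bases common to FOS-1 replicates 1 and 3: without peaks over 15 kb its values were 17.2% and 4.08%.

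EGL-43 coverage was also highest near the bases that the FOS-1 lists had in common. At the middle of the bases common to both FOS-1 lists, EGL-43 peaks covered 21.4%, 14.5% and 22.7% of the regions in EGL-43 replicates 1, 2 and 3. At 5 kb to the left they covered 3.57%, 2.90% and 6.72%, and at 5 kb to the right 7.14%, 1.45% and 5.88%. Coverage at the middle exceeded coverage at both flanks in each replicate.

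**Figure D3:**
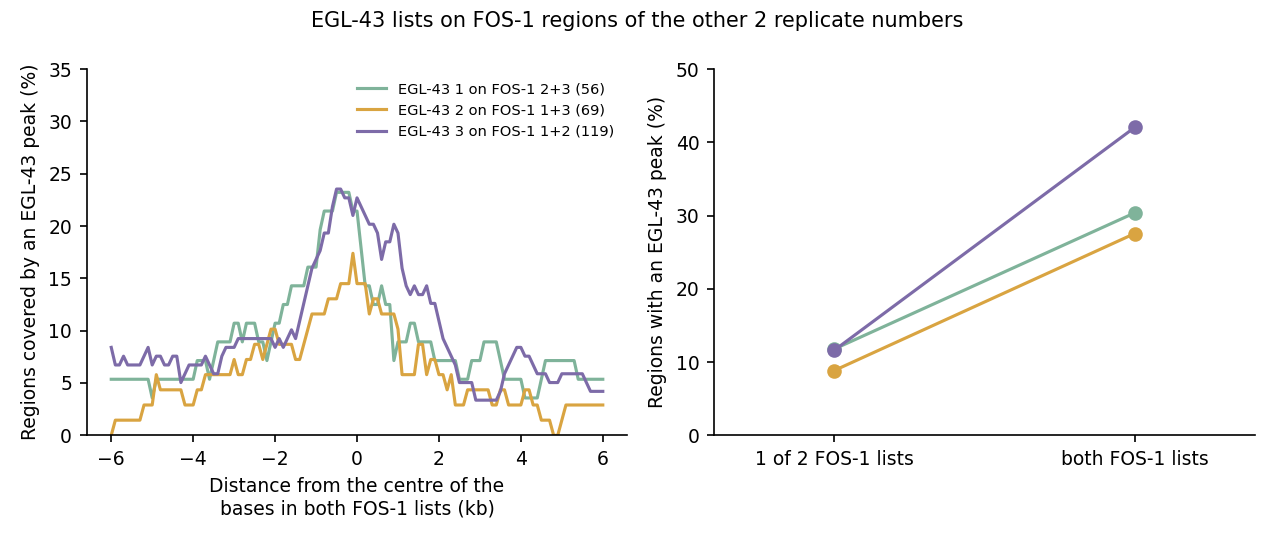
Left, share of regions found in both FOS-1 lists of the other 2 replicate numbers that an EGL-43 peak covered (percent) by distance from the centre of the shared bases (kb), with the number of regions in brackets. Right, share of regions with an EGL-43 peak (percent) among those in 1 of the 2 FOS-1 lists and those in both, in the same colours; all 3 lines rise, to 30.4%, 27.5% and 42%.

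The EGL-43 peaks in these regions were not reliably the stronger ones of their lists. They numbered 20, 20 and 55 in EGL-43 replicates 1, 2 and 3. Their median score percentile was 69.7 in EGL-43 replicate 1, against 50 for the remaining peaks of that list. In replicate 3 it was 62.7 against 49.6, but in replicate 2 it was 48.8 against 50.2. With peaks at an FDR under 0.001 the replicate 2 values were 61.5 against 57.6, so its direction turned, with only 13 peaks in the regions. The mean difference of 10.5 percentile points ± 10.8 (SD, n = 3) was smaller than its spread, and the exact sign-flip test (two-sided) gave p = 0.5, where 0.25 is the smallest possible.

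FOS-1 scores differed between regions with and without EGL-43, and not in the same direction in every replicate. In replicate 1 the regions that overlap a recurring EGL-43 region had a median percentile of 23.4 and the others 51.2, which is the percentile of the tied score. Without the regions whose highest replicate 1 peak was tied, the medians were 23.4 and 36.6, which narrowed the gap by over 2 times. In replicate 3 the medians were 33.4 and 64.5. In replicate 2 the order was the other way, with 59.5 and 51.3. Regions of 1 list, for reference, had medians of 51.2 (again the tied score), 48.9 and 49.6 in replicates 1, 2 and 3. The low medians of regions with EGL-43 in replicates 1 and 3 were thus also below those of regions of 1 list.

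**Figure D4:**
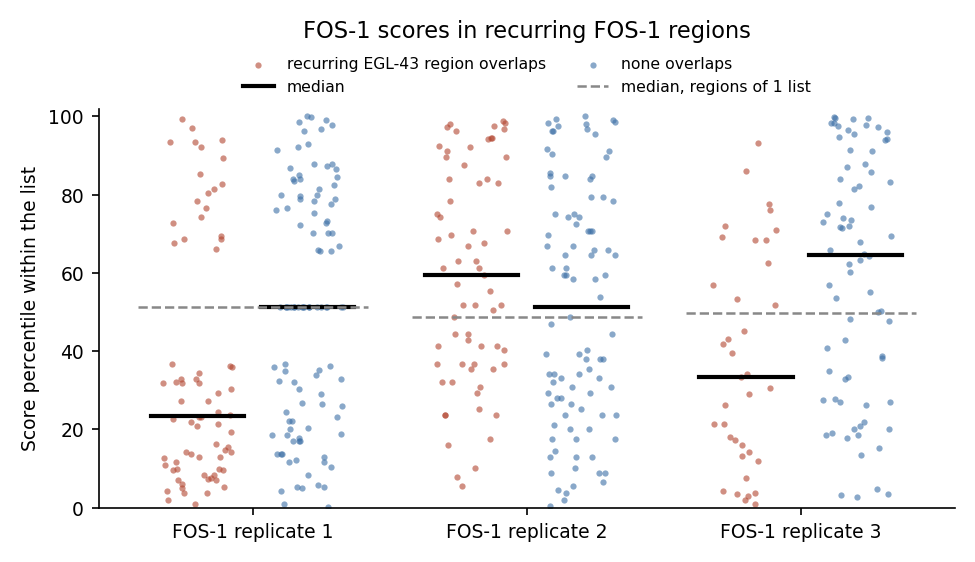
Score percentile within its list (vertical axis) of the highest FOS-1 peak in each recurring region, for regions that overlap a recurring EGL-43 region and those that do not, by FOS-1 replicate; black bars are medians and dashed lines the medians of regions with a peak in 1 list. The overlapping regions sit lower in replicates 1 and 3 (medians 23.4 and 33.4) and not in replicate 2 (59.5).

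The same pattern was seen between lists of different number, which have no control library in common. The recurring regions were still formed from all 3 FOS-1 lists, including the one that shares its control with the EGL-43 list. For each of the 6 pairs of a FOS-1 and an EGL-43 list of different number, the median FOS-1 percentile of recurring regions with an EGL-43 peak was set against that of recurring regions without. With FOS-1 replicate 1 it was 27.3 against 51.2 for EGL-43 replicate 2, and 22.9 against 51.2 for EGL-43 replicate 3. The 51.2 is again the tied score, and without tied regions the values were 26.9 against 34.6 and 22.9 against 65.7, so the size of the difference depended on the tie and its direction did not. With FOS-1 replicate 3 it was 36.9 against 62.3 for EGL-43 replicate 1, and 36.2 against 63.4 for EGL-43 replicate 2. With FOS-1 replicate 2 the regions with an EGL-43 peak were the higher, at 59.5 against 47.9 and 60.4 against 48.9 for EGL-43 replicates 1 and 3. The sign thus followed the FOS-1 list. It was not particular to recurring regions: in the regions of 1 list 4 of the 6 differences were below 0 as well, in a range from -31.8 to 14.9 points.

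Among recurring regions, those in the lowest quartile of FOS-1 replicate 1 scores overlapped a recurring EGL-43 region in 38 of 67 cases (56.7%), and those in the highest quartile in 13 of 45 (28.9%). In replicate 3 these shares were 15 of 29 (51.7%) and 4 of 31 (12.9%). In replicate 2 they were 8 of 31 (25.8%) and 22 of 48 (45.8%). The tied score is the median of replicate 1. With ties averaged it counted in the class from 50 to 75, where 7 of 36 regions overlapped. Of the 19 recurring regions whose highest replicate 1 peak had the tied score, 0 overlapped a recurring EGL-43 region. Of all 304 tied peaks, 12 (3.95%) overlapped an EGL-43 replicate 2 peak and 3 (0.987%) an EGL-43 replicate 3 peak, against 9.49% and 9.76% of the 369 replicate 1 peaks with higher scores and 19.3% and 27.2% of the 394 with lower scores. Leaving the tied peaks out gave 200 recurring regions, of which 83 (41.5%) overlapped.

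**Figure D5:**
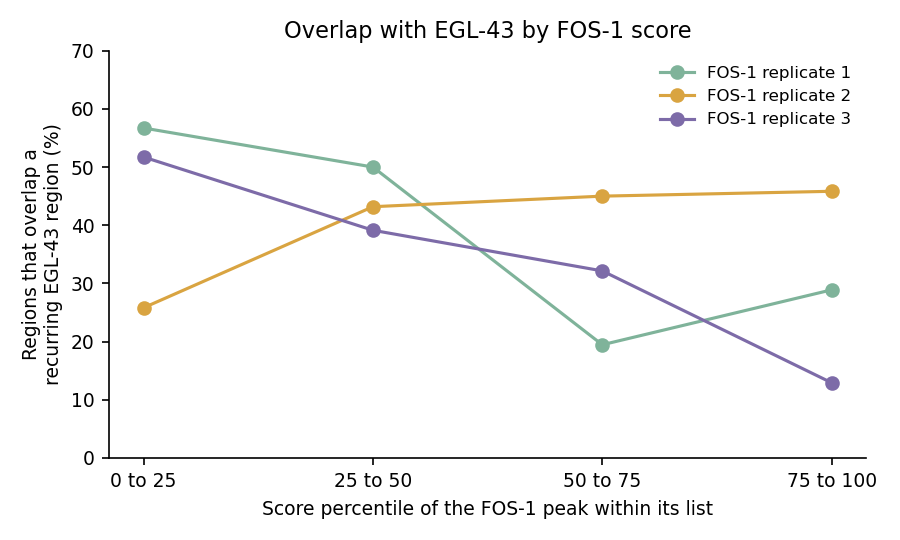
Share of recurring FOS-1 regions that overlap a recurring EGL-43 region (percent, vertical axis) by quartile of the FOS-1 score within its list (horizontal axis), 1 line per FOS-1 replicate. The share falls from 56.7% to 28.9% between the outer quartiles in replicate 1 and from 51.7% to 12.9% in replicate 3, and rises from 25.8% to 45.8% in replicate 2.

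The authors' false discovery rate (FDR), given for each peak in the authors' deposited table, put the regions with EGL-43 ahead, as the score did in replicate 2 but not in replicates 1 and 3. It was below 0.001 in every FOS-1 list in which the region had a peak for 116 of the 218 regions (53.2%). These were 55 of the 83 with EGL-43 (66.3%) and 61 of the 135 without (45.2%). The share over all FOS-1 regions was not taken. All 19 regions whose highest replicate 1 peak had the tied score were among the 135, and the comparison was not repeated without them. In the lists as a whole 63.5%, 55.1% and 89.1% of peaks in replicates 1, 2 and 3 were below 0.001. These shares count single peaks of 1 list, whereas a region had to pass in each of its lists. They are therefore not a background for the shares of regions.

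The FOS-1 score ranks of different replicates went together in 1 of the 3 pairs. Across the 69 regions with a peak in both replicates 1 and 3, Pearson's r between percentiles was 0.52 and Spearman's rho 0.53. It was 0.05 over 121 regions for replicates 1 and 2 and 0.003 over 56 regions for replicates 2 and 3 (Pearson's r). These are descriptions across regions, which are not independent replicates, and each pair uses separate tagged and control libraries. Of the 27 regions at or above the 50th percentile in both replicates 1 and 3, 5 overlapped a recurring EGL-43 region, and of the other 42 regions of that pair 21 did. The 27 include 10 with the tied score of replicate 1, of which 0 overlapped, and the remaining 17 held the 5.

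Among regions in exactly 2 lists that overlap a recurring EGL-43 region, the highest mean percentile, 96.2, was on chromosome X from 4212637 to 4214626, with 99.3 in replicate 1 and 93.2 in replicate 3. It was followed by chromosome III from 11335453 to 11338977, with 93.4 and 94.2 in replicates 1 and 2 and EGL-43 peaks in all 3 EGL-43 lists. Then came chromosome X from 8157313 to 8161313, with 81.4 and 96.7 in replicates 1 and 2. In each of them both FOS-1 lists gave a high rank. The next 3 lay on chromosome X from 6370462 to 6379270, on chromosome I from 10038284 to 10045680 and on chromosome IV from 8627498 to 8633585, with mean percentiles of 85.0, 83.6 and 82.7. In the chromosome I region only 2 bp were covered by 2 FOS-1 lists.

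Regions without a recurring EGL-43 region reached higher ranks. The first was on chromosome V from 3385902 to 3391942, with 99.2 in replicate 1 and the top rank, 100, in replicate 2, and 3436 bp common to both. Next came chromosome IV from 10816798 to 10822826 with 96.3 and 95.4 in replicates 1 and 2, whose peaks met at 1 bp, and chromosome II from 7758285 to 7762987 with 96.3 and 87.7 in replicates 2 and 3, also at 1 bp. All but the last of these 3 also held EGL-43 peaks, in 1 list for the first and in 2 lists for the second. On chromosome IV from 10524095 to 10525131, replicates 1 and 3 held the identical peak of 1037 bp at percentiles 92.1 and 91.2, and EGL-43 replicate 1 had the same peak at 94.6. The remaining 2 lay on chromosome IV from 16488388 to 16493265 and on chromosome V from 11074509 to 11077487, with means of 91.3 and 91.0.

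Recurring regions were spread over all 6 nuclear chromosomes, from 1.74 per Mb on chromosome III to 2.31 per Mb on the X, with chromosome lengths taken as the last peak end. As a share of all FOS-1 regions of a chromosome they ranged from 6.19% on chromosome III to 8.84% on chromosome IV, and were 8.04% on the X. The share that overlapped a recurring EGL-43 region was highest on chromosome II, 17 of 34 (50%), and lowest on chromosome V, 14 of 47 (29.8%). On the X it was 16 of 41 (39%), against 38.1% over all chromosomes. The like share over all FOS-1 regions of each chromosome was not taken. Whether the order of the chromosomes is particular to recurring regions is therefore not known.

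The autosomes of C. elegans have gene-dense centres with little recombination, flanked by arms richer in repeats. Chromosomes were cut into 3 stretches of equal length. The middle stretch of the autosomes held 40 of 67 recurring regions that overlap a recurring EGL-43 region (59.7%), 44 of the 110 that do not (40%), and 39.7% of all 2176 autosomal FOS-1 regions. On the X it held 4 of 16 regions with a recurring EGL-43 region and 6 of 25 without, and no such gap was seen there. The autosomes were not alike: the middle stretch held 9 of 12 regions with and 6 of 22 without on chromosome I, 13 of 17 and 9 of 17 on II, and 7 of 14 and 10 of 33 on V. On chromosome III these counts were 4 of 9 and 6 of 15, and on IV the order was the other way, with 7 of 15 and 13 of 23. Over all chromosomes the shares were 53.0% and 37.0% of recurring regions, and regions of 1 list had the same order, with 47.8% and 37.1%. Recurring EGL-43 regions themselves lay in the middle stretch in 192 of 412 cases (46.6%), against 38.4% of all FOS-1 regions. Of the 330 recurring EGL-43 regions that do not overlap a recurring FOS-1 region, 149 lay there (45.2%). These shares are counts of regions in 1 set of lists and were not tested.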

How the data were processed

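NanoDam libraries from dopaminergic neurons of L3 larvae (3 control, 3 EGL-43, 3 FOS-1) were analysed from 6 peak lists and 2 combined lists. Per the labels' protocols, worms were grown for 3 generations on bacteria without Dam, amplicons were made with 4 and then 19 PCR cycles, and sequencing was on a nanopore instrument. The submitters' processing notes name minimap2, SAMtools and the build ce10, without roles; the peak caller is not given in the sources used here. Each deposited peak has a start, an end, a score of unstated scale and an FDR, both made by the authors per library pair. The deposited combined lists equal the merge of a factor's 3 lists where peaks overlap or touch (2686 and 2477 nuclear regions for FOS-1 and EGL-43).

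Regions, overlaps and percentiles (ties averaged) were computed with Python 3.11.15, NumPy 2.4.6 and pandas 2.3.3, and the interval code was tested on simulated data. Differences over the 3 EGL-43 lists were tested with a two-sided exact sign-flip test. All other values are descriptions. The control library pairs a FOS-1 list with the EGL-43 list of its number. Regions were named by rule: all those in 3 lists, the 6 highest by mean percentile in exactly 2 lists with and without a recurring EGL-43 region, the 3 widest, and those at the edge of the rule. Alternatives were an FDR of 0.001, scores at or above the median, trimmed peaks, other overlap and support rules, no peaks over 15 kb, and leaving out each replicate. The regions, lists and tests were chosen with earlier results of these data known. The classes of width, the shares of regions and bases in the lists free of a shared control, the tied peaks and the pairs of lists were chosen after seeing the data. The planned gene and sequence content was not run, because no genome or annotation of ce10 was used here.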

Additional observations from a re-analysis of the deposited data

How the results depend on the processing

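The count of 218 recurring FOS-1 regions was 120 at an FDR under 0.001, 64 among peaks at or above the median score of their list, and 14 where all 3 lists were required. The 83 that overlap a recurring EGL-43 region became 51, 8 and 6 under the same settings, or 42.5%, 12.5% and 42.9% of the regions. Each of these settings keeps fewer peaks or asks for more lists, and was applied to EGL-43 as well. The 412 recurring EGL-43 regions became 271, 191 and 130. The overlap share over all FOS-1 regions was taken only at the main setting (10.7%) and for scores at or above the median (5.60%). Under the other settings the shares have no such background. With EGL-43 peaks still asked for in 2 lists or more, 10 of the 14 regions overlapped. With both remaining lists of each factor required, leaving out a replicate number gave 56 to 119 regions and 16 to 36 overlaps, or 26.1% to 30.3%. The median width of 2990.5 bp was 777.5 bp when only bases in 2 lists or more were counted, by construction, and 2843 to 3152 bp when a replicate was left out. Trimming peaks by 2 bp at each end (192 regions, 72 overlaps), 100 bp in common (187 regions), 500 bp of overlap between the factors' regions (81 overlaps), no peaks over 15 kb (216 and 83) and no tied peaks (200 and 83) kept the counts within 1.5 times.

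The difference in EGL-43 score percentile, 10.5 points with the list as a block, had the same value with no replicate block (two-sided exact permutation test, 3 values against 3, p = 0.4). It stayed above 0 under every alternative run, from 6.91 with means to 14.0 at an FDR under 0.001 (18.9, 3.86 and 19.2 in EGL-43 replicates 1, 2 and 3, p = 0.25 by the exact test), and from 5.80 to 16.4 when a replicate was left out; no p could pass 0.05 in this design, so this says nothing about stability. Depth is unknown, so whether a region missing from a list was unbound or too thinly read cannot be told apart.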

Other observations

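Recurring FOS-1 regions sometimes lay close together. Of the 212 gaps between neighbouring regions, with a median of 217 kb, 43 were under 50 kb, and these joined 76 regions into 33 groups. The group with the most regions had 4, over 59.4 kb of chromosome V from 14741609 to 14800960, and 0 of them overlapped a recurring EGL-43 region. On chromosome I, 3 regions over 63.3 kb from 9052112 to 9115403 all overlapped one, including a region found in all 3 FOS-1 lists. Both groups were singled out after their values were seen.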
